A study of Picromerus lewisi with 6 samples.

Results

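The clusters described here encode tubulins and the proteins that fold, modify and bind them, the kinesin and dynein motors, and proteins that assemble, sever, cap or cross-link actin filaments. They come from the venom glands of the stink bug Picromerus lewisi, a predator of other insects. A cluster was taken when its first match among non-redundant proteins named Halyomorpha or Nezara, both stink bug genera, and when its Swiss-Prot description held one of a set of cytoskeletal words. Muscle proteins and myosins were dropped. The rule took 136 of 22242 clusters, out of 11822 with a stink bug as first match. It used names and no measured value. Of the 136, 14 entered only because the letters formin stand inside another word such as transforming, and 16 name axonemal or ciliary proteins. Both sets are given apart from the other 106 clusters.

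The 2 groups were adults and nymphs of the 5th instar, with 3 venom gland libraries each. The labels name no treatment, sex or age in days. They also do not say whether a library came from 1 animal or a pool. The spread between libraries that p-values rest on may thus be technical. A cluster is named here after its best protein match. Clusters that share a name may be pieces or copies of the same gene, and the files do not show how reads were divided among them.

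Microtubules are polymers of alpha- and beta-tubulin pairs, nucleated from gamma-tubulin. Kinesins and cytoplasmic dynein walk along them with vesicles, mitochondria and other cargo. Actin filaments are nucleated by the Arp2/3 complex and by formins, supplied by profilin, and taken apart by cofilin and gelsolin. In secretory gland cells both networks carry and release the secretory product. Axonemes, the motile cores of cilia and flagella, are in insects known mainly from sperm, and non-motile cilia from sensory neurons.

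Detection differed widely between libraries. Among all clusters, the share with FPKM above 0 was 32.3%, 87.9% and 40.9% in the adults (replicates 1, 2 and 3, an order kept in all values below) against 68.3%, 53.7% and 63.4% in the nymphs. The 136 clusters were found more often in every library but adult replicate 2, with 45.6%, 87.5% and 65.4% above 0 in adult libraries, against 79.4%, 75.7% and 83.1% for the nymphs. They are also longer, with a median of 1189.5 bases against 589.5 bases for all clusters. By the rule each has a Swiss-Prot match, which 41.2% of all clusters have. The part of length and annotation in their detection was not tested. Of the 136 clusters, 53 were above 0 in all 6 libraries, and 12 in 1 library only. The order did not follow depth: 13909197 to 19070770 fragments per library were recovered from the FPKM, and adult replicate 2, with the most clusters, held 14393766. The libraries also differed in the share of detected clusters of at least 400 bases that rested on 1 to 9 fragments, which was 2.65% in adult replicate 3 and 8.81% to 23.29% in the others.

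**Figure D1:**
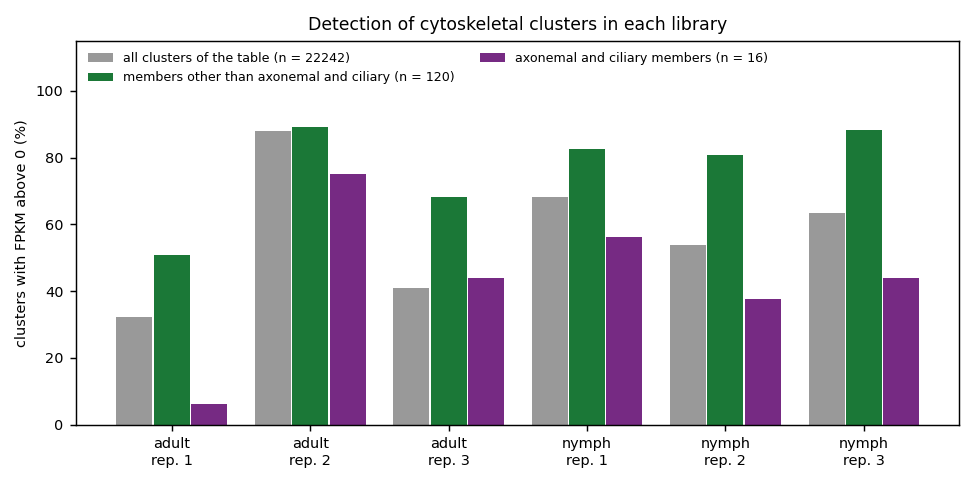
Share of clusters with FPKM above 0 (percent, vertical axis) in each of the 6 libraries, for all 22242 clusters, the 120 members that are not axonemal or ciliary and the 16 that are. Axonemal and ciliary clusters were at 6.25% in adult replicate 1 and 75.0% in adult replicate 2, beside 50.8% and 89.2% of the other members.

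FPKM counts fragments per length and per depth of the library, so levels of different clusters can be compared. To compare libraries, FPKM was divided by a factor per library, the median ratio over 4653 clusters above 0 in all 6. The factors were 0.2835, 1.643 and 1.559 in adults, against 1.022, 1.361 and 0.9902 in nymphs. The low factor of adult replicate 1 means that each of its fragments weighs more after rescaling. Levels below are rescaled FPKM unless deposited FPKM is named. A log2 fold change is adult minus nymph on log2(rescaled FPKM + 1), a scale that understates the change of low clusters.

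The stages were compared by limma over the 11961 clusters that reached an FPKM of 1 in 3 or more libraries, and p-values were Benjamini-Hochberg adjusted over all of them. Of the 136 clusters, 102 passed this filter. The 34 that did not were short, with a median length of 447 bases against 1435.5 bases. No member passed an adjusted p under 0.05 in limma (0 of 102), where 28 clusters did overall (0.234%, with 0.1% higher and 0.134% lower in adults). At an unadjusted p under 0.05 limma had 5 members (4.9%), 1 higher and 4 lower in adults, against 9.05% of all clusters (2.95% higher and 6.09% lower). The members thus stood below the background on this count. In bulk glands, fewer cells of a type and less RNA per cell cannot be told apart.

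The log2 fold change was below 0 for 72 of the 102 tested members (70.6%), against 61.6% of all tested clusters. Its median was -0.50 for the members and -0.29 for all clusters. Without adult replicate 1 these medians were -0.14 and -0.17. They also came close to each other without adult replicate 2, at -0.36 and -0.33, and without nymph replicate 2, at -0.33 and -0.24. Leaving out each of the other libraries gave -0.65 to -0.44 for the members and -0.40 to -0.21 for all clusters. The stages did not overlap for 15 members with the nymphs above (14.7%) and for 2 with the adults above (1.96%), against 10.1% and 3.95% of all clusters. This count depends on the scale. In FPKM as deposited, 6 members had the nymphs above and 0 the adults above, against 6.6% and 2.06% of all clusters. The 6 are thus not a larger share of the 102 tested members than of all clusters. Split the same way on both scales were 5 clusters, namely tau, gamma-tubulin, dynein light chain 1, a KIF21B and a KIF4A cluster. How many of all clusters split on both scales was not counted, so these 5 stand without a background. Overlap is stated below for rescaled FPKM. Members above 0 in all 6 libraries had a median SD of 0.63 over the libraries on the log2 scale, against 0.69 for the 4623 such clusters overall.

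**Figure D2:**
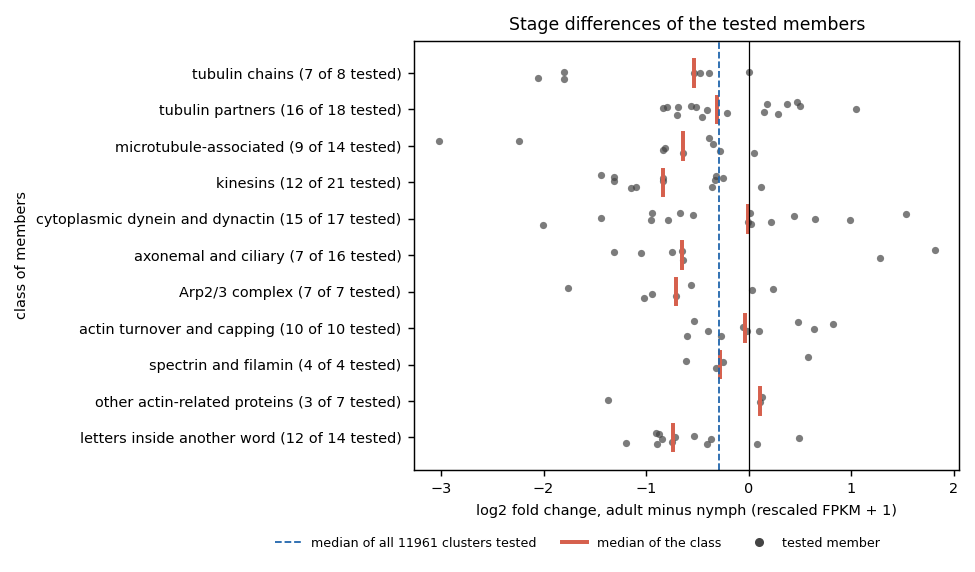
Log2 fold change, adult minus nymph (horizontal axis), of each tested member by class (vertical axis), with the class median as a red bar and the median of all tested clusters, -0.29, as a dashed line. Kinesins have the lowest class median, -0.84, with 11 of 12 tested clusters below 0, and cytoplasmic dynein and dynactin straddle 0 with a median of -0.01.

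Among the tubulin chains, a beta-1 tubulin cluster of 2996 bases (Cluster-9520.4977) was the most abundant. It stood at 55.1, 73.9 and 90.3 in adults, against 105, 100 and 107 in nymphs. The nymph libraries lay close together and above each adult library, yet the log2 fold change was -0.53 ± 0.47 (SE, limma, n = 3 per stage, adjusted p = 0.77). A second beta-1 cluster of 1492 bases, Cluster-9520.4978, stood at 11.4, 8.81 and 32.3 in adults, against 49.1, 68.3 and 81.8 in nymphs. The stages did not overlap, and the log2 fold change was -2.05 ± 0.58 (SE, limma, n = 3 per stage, unadjusted p = 0.0054, adjusted p = 0.27). Both clusters carry the name of the same chain, the partner of alpha-tubulin in the microtubule wall. Their ratio needs no rescaling, since it is taken within a library. The short cluster over the long cluster in deposited FPKM was 0.207, 0.119 and 0.358 in adults, against 0.468, 0.680 and 0.768 in nymphs. The ratio too was apart between the stages, whereas in deposited FPKM the short cluster itself just overlapped, with 50.40 in adult replicate 3 and 50.25 in nymph replicate 1. The ratio was chosen after its values were seen, so it carries no test.

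The alpha-tubulin cluster of the rule, Cluster-9520.4087, stood at 15.9, 4.04 and 117 in adults, against 59.6, 72.8 and 94.4 in nymphs. Adult replicate 3 was the highest of all libraries and adult replicates 1 and 2 the lowest, so the stages overlapped (log2 fold change -1.80 ± 0.95, SE, limma, n = 3 per stage, adjusted p = 0.65). Without adult replicate 3 the log2 fold change was -3.06 and the adjusted p in limma 0.095. Over leaving out each library in turn the adjusted p ran from 0.095 to 0.92. The ratio of this cluster to the long beta-1 cluster, chosen after its values were seen, spanned 0.0546 to 1.29 over the libraries, both ends in adults.

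Another alpha-1 tubulin cluster, Cluster-9520.4644, lies outside the rule because its first protein match was to a springtail, Allacma fusca. Its deposited FPKM was 34.49, 375.59 and 532.32 in adults, against 325.39, 636.75 and 441.35 in nymphs, higher than the alpha-tubulin cluster of the rule in every library. Over the long beta-1 cluster it gave ratios of 2.21, 3.10 and 3.78 in adults, against 3.03, 4.66 and 4.18 in nymphs. The alpha-tubulin named by the rule was therefore the smaller part of the alpha-tubulin measured.

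The rarer chains were near the limit of detection. Gamma-tubulin (Cluster-9897.0), which nucleates microtubules at the centrosome, stood at 0, 1.54 and 0 in adults, against 5.08, 3.40 and 3.00 in nymphs. Each nymph library was above each adult one (log2 fold change -1.80 ± 0.74, SE, limma, n = 3 per stage, unadjusted p = 0.034, adjusted p = 0.49). Delta-tubulin and epsilon-tubulin, known from centrioles and basal bodies, overlapped between the stages. Delta-tubulin (Cluster-9520.1308) lay between 0 and 2.94 and epsilon-tubulin (Cluster-9520.687) between 0 and 3.15, both listed at 0 in adult replicate 3.

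**Figure D3:**
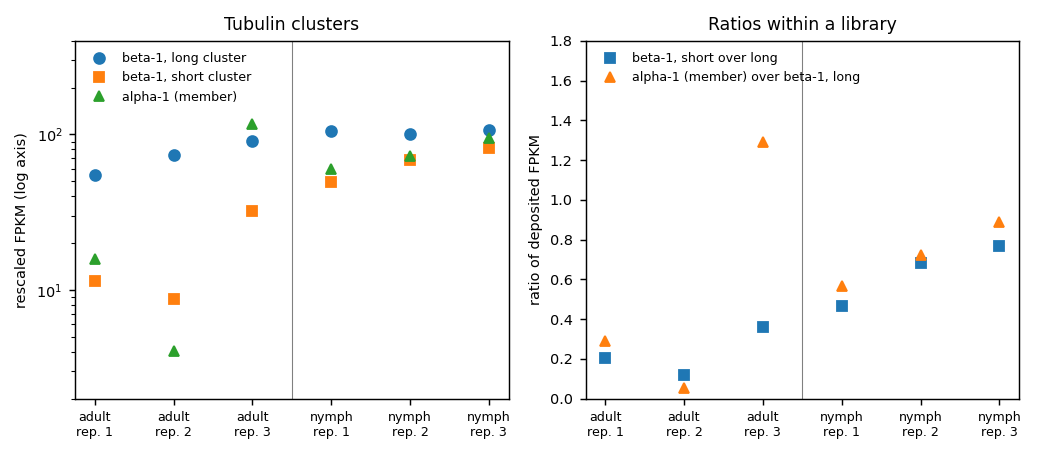
Left, rescaled FPKM (log axis) of the 2 main beta-1 tubulin clusters and of the alpha-1 tubulin member in each library. Right, ratios of deposited FPKM within each library; the short over the long beta-1 cluster is 0.119 to 0.358 in adults, against 0.468 to 0.768 in nymphs, while alpha-1 over beta-1 runs from 0.0546 to 1.29 in adults alone.

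Of the proteins that fold and modify tubulin, 16 of 18 clusters were tested. Among these, 9 were below 0 on the log2 scale, with a median of -0.31 beside -0.29 for all clusters. The most abundant was the tubulin polymerization-promoting protein (Cluster-9520.3529), at 42.7, 29.0 and 56.2 in adults, against 24.0, 41.9 and 47.5 in nymphs. The stages overlapped, with a log2 fold change of 0.18 ± 0.52 (SE, limma, n = 3 per stage, adjusted p = 0.93) that turned below 0 under other scalings, to -0.32 at an equal total. The chaperones A to E bind newly made tubulin and join it into pairs. Chaperone A (Cluster-9520.5062) stood at 6.63, 21.4 and 27.7 in adults, against 35.5, 19.1 and 27.7 in nymphs, with adult replicate 1 apart at the bottom. Chaperone C (Cluster-9520.2948) was among the steadiest members, at 12.3, 13.1 and 18.3 in adults, against 12.0, 19.7 and 19.8 in nymphs. Its highest library was 1.65 times its lowest.

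Chaperones D and E were each split over several clusters. Of the 3 chaperone D clusters, the longest (Cluster-9520.2160) lay between 1.32 and 4.45. A chaperone D cluster of 383 bases (Cluster-1712.0) had deposited FPKM of 27.08 in adult replicate 3 and was listed at 0 in the other 5 libraries. Enzymes that mark tubulin after assembly were low. The glutamylase TTLL4 (Cluster-8605.0) lay between 0.0385 and 2.95, and the alpha-tubulin acetyltransferase (Cluster-9520.604) between 0.463 and 2.98, without a split between the stages.

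Among the microtubule-associated proteins, Jupiter (Cluster-9520.3656), which binds microtubules in Drosophila, was the most abundant. It stood at 48.6, 56.0 and 49.4 in adults, against 112, 42.6 and 58.6 in nymphs. The adult libraries lay close together, and nymph replicate 1 alone was high (log2 fold change -0.35 ± 0.52, SE, limma, n = 3 per stage, adjusted p = 0.85). The plus-end tracking protein of the RP/EB family (Cluster-9520.3515) overlapped between the stages, at 6.58 to 11.4 in adults, against 6.01 to 16.7 in nymphs.

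The cluster named tau (Cluster-9520.7674, 867 bases) had the lowest log2 fold change of all tested members. Tau binds and stabilizes microtubules and is known best from axons. It stood at 0, 0.475 and 3.40 in adults, against 11.8, 19.1 and 12.4 in nymphs, so every nymph library exceeded every adult library. The log2 fold change was -3.02 ± 0.69 (SE, limma, n = 3 per stage, unadjusted p = 0.0013), and the adjusted p of 0.17 missed the threshold. Without a filter on low values the adjusted p in limma was 0.039, and without adult replicate 3 it was 0.047. Over all alternatives it ran from 0.039 to 0.70.

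Neuron markers were measured beside tau. Their list also took proteins that are not specific to neurons, such as YKT6, syntaxin-16, syntaxin-18, CUGBP Elav-like 1-A, extended synaptotagmin-2-A and synaptotagmin-like proteins, and these carry much of its sum. The summed rescaled FPKM of the 23 neuron clusters was 88.1 to 90.7 in adults, against 82.6 to 97.8 in nymphs. Of 19 tested, 2 were lower in adults at an unadjusted p under 0.05 in limma, beside 6.09% of all clusters. Both are acetylcholine receptor subunits. Of these, Cluster-8724.0 had deposited FPKM of 0, 0.33 and 0 in adults, against 5.89, 3.28 and 4.62 in nymphs. Among the remaining subunits, Cluster-9520.4423 was lower in adults (log2 fold change -1.69) and Cluster-5138.0 higher (1.27). The latter had deposited FPKM of 5.03, 7.17 and 6.71 in adults, against 6.95, 2.77 and 0.61 in nymphs. Both syntaxin-1A clusters, the synaptic vesicle fusion protein, overlapped between the stages. The part of nerve tissue in the level of tau was not tested.

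Futsch, the MAP1B protein of Drosophila neurons, was split over 5 clusters. Together they held 112, 12 and 1160 recovered fragments in adults and 249, 1355 and 933 in nymphs. The longest (Cluster-9520.5314, 7752 bases) stood at 3.81, 0.0670 and 5.06 in adults, against 2.24, 6.70 and 5.86 in nymphs, with adult replicate 2 alone near 0. A cluster named echinoderm microtubule-associated protein-like 6 (Cluster-671.2) stood at 0, 0.718 and 0 in adults, against 0, 16.8 and 9.17 in nymphs, where 1 nymph library at 0 kept the stages overlapping. It is 360 bases long (log2 fold change -2.24 ± 1.06, SE, limma, n = 3 per stage, adjusted p = 0.59).

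Kinesins walk toward the plus ends of microtubules. Of 21 clusters 12 were tested, and 11 of these were below 0 (91.7%, against 61.6% of all clusters), with a median of -0.84. None passed the threshold in limma, also at an unadjusted p under 0.05. Kinesin heavy chain (Cluster-9520.3704), the motor of conventional kinesin, stood at 10.4, 10.2 and 38.6 in adults, against 16.7, 71.3 and 58.8 in nymphs. Adult replicate 3 exceeded nymph replicate 1, so the stages overlapped (log2 fold change -1.31 ± 0.71, SE, limma, n = 3 per stage, adjusted p = 0.67). Kinesin light chain (Cluster-9520.5571), which binds cargo, was steady at 3.03, 4.18 and 5.82 in adults, against 3.17, 4.05 and 4.30 in nymphs.

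Heavy over light chain in deposited FPKM was 3.42, 2.43 and 6.64 in adults, against 5.26, 17.6 and 13.7 in nymphs. This ratio, chosen after its values were seen, was highest in nymph replicates 2 and 3 and overlapped between the stages. Milton (Cluster-9520.5699), the adaptor that ties mitochondria to kinesin in Drosophila, stood at 3.35, 3.92 and 14.5 in adults, against 4.54, 9.89 and 10.7 in nymphs. Adult replicate 3 was the highest library for milton, for kinesin light chain and for 24 of the 102 tested members in all. Nymph replicate 2 was the highest for as many, and over all 11961 tested clusters these libraries were the highest for 2092 and 1980.

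Kinesins of cell division were grouped after their values were seen. They are 4 clusters of the chromokinesin KIF4, which binds chromosome arms, 1 of KIF18A, which aligns chromosomes, and 1 of KIF23, which works at the central spindle. Together they held 23, 1 and 0 recovered fragments in adults and 67, 407 and 202 in nymphs, numbers that are not scaled between libraries. In summed rescaled FPKM they stood at 6.38, 0.0487 and 0 in adults, against 6.22, 32.6 and 19.2 in nymphs, so the stages overlapped through adult replicate 1. Most came from KIF4, at 23, 1 and 0 in adults, against 21, 360 and 189 in nymphs, where the stages overlapped. The KIF4A cluster with the clearest split (Cluster-4288.1) stood at 1.45, 0.0487 and 0 in adults, against 1.52, 3.75 and 3.24 in nymphs (log2 fold change -1.44 ± 0.72, SE, limma, n = 3 per stage, adjusted p = 0.63). The lowest nymph library was barely above the highest adult library.

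KIF21, a motor that slows microtubule growth, was spread over 4 clusters, 3 of them tested, with log2 fold changes of -1.31 to -0.84. One of them (Cluster-9520.6949) stood at 0, 1.33 and 1.67 in adults, against 3.45, 2.57 and 5.01 in nymphs, without overlap. KIF2A (Cluster-9520.1093), which depolymerizes microtubule ends, lay at 3.14 to 3.95 in nymphs and at 0, 3.84 and 2.60 in adults.

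**Figure D4:**
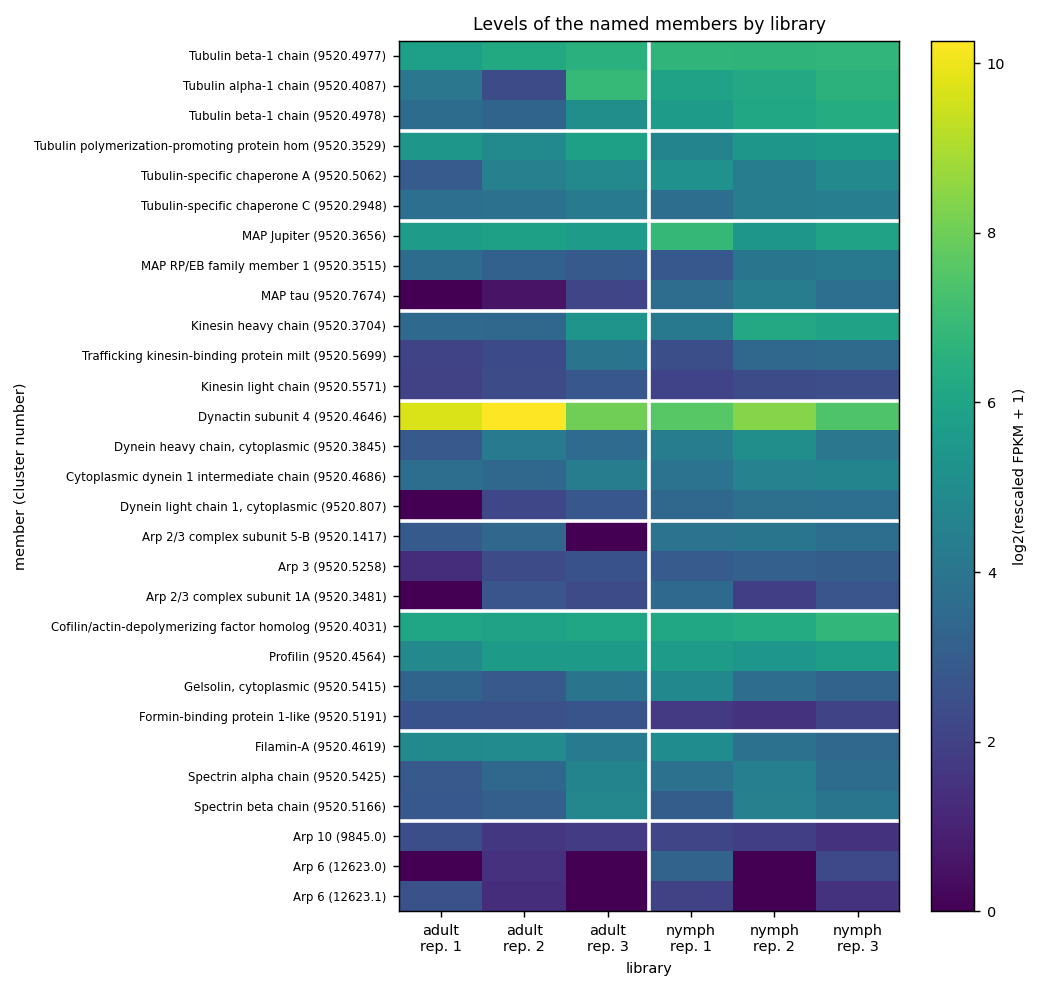
Log2(rescaled FPKM + 1) (colour) of the named members outside the axonemal and letters sets, 1 row each, in the 3 adult and 3 nymph libraries, with white lines between classes and stages. Cofilin, profilin and the long beta-1 tubulin cluster are high in all 6 libraries, and tau is dark in adults and lighter in nymphs.

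Cytoplasmic dynein walks toward minus ends, and dynactin couples it to cargo. Of 15 tested clusters among 17, 8 were below 0 and the median was -0.01. Dynein heavy chain was split over a cluster of 11500 bases and one of 3277 bases. The long one (Cluster-9520.4664) stood at 1.87, 5.99 and 8.06 in adults, against 3.27, 14.5 and 10.04 in nymphs. The short one (Cluster-9520.3845) stood at 6.28, 17.3 and 10.99 in adults, against 19.4, 32.5 and 15.8 in nymphs (log2 fold change -0.95 ± 0.55, SE, limma, n = 3 per stage, adjusted p = 0.71). Both overlapped between the stages. The short cluster was higher than the long one in every library, by 1.36 to 5.93 times in deposited FPKM. The intermediate chain (Cluster-9520.4686), which binds dynactin, lay at 9.89 to 19.3 in adults, against 14.1 to 23.9 in nymphs.

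Dynein light chain 1 (Cluster-9520.807), a small subunit shared with other complexes, stood at 0, 3.58 and 5.84 in adults, against 9.91, 12.96 and 12.5 in nymphs. Every nymph library exceeded every adult library (log2 fold change -2.01 ± 0.75, SE, limma, n = 3 per stage, unadjusted p = 0.022, adjusted p = 0.41). A second cluster with this name (Cluster-9520.3149) lies outside the rule, since its first match was to the wasp Fopius arisanus. Its deposited FPKM was 6.98, 48.03 and 43.08 in adults, against 23.27, 37.95 and 29.89 in nymphs, with a log2 fold change of 0.02 ± 0.47 (SE, limma, n = 3 per stage, adjusted p = 0.99). The more abundant of the 2 clusters thus overlapped between the stages.

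The most abundant member by far was a cluster of 2692 bases whose Swiss-Prot name is dynactin subunit 4 (Cluster-9520.4646). Its protein family and orthologous group entries also name a zinc carboxypeptidase, a class of protein-cleaving enzymes, so how much of its level is dynactin is not known. It stood at 823, 1228 and 264 in adults, against 194, 333 and 170 in nymphs. Adult replicate 3 lay between the nymph libraries, so the stages overlapped (log2 fold change 1.53 ± 0.67, SE, limma, n = 3 per stage, unadjusted p = 0.044, adjusted p = 0.53). This cluster held 35.5% of the fragments of all 136 clusters over the 6 libraries, with its largest share, 67.4%, in adult replicate 2 and its smallest, 15.1%, in nymph replicate 3. Any sum over the members therefore follows it, and without it the members held 4395, 34348 and 64925 fragments in adults and 30083, 66179 and 41093 in nymphs.

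The summed rescaled FPKM of 72 venom clusters was 154100, 204700 and 66100 in adults, against 59250, 104200 and 55730 in nymphs. Adult replicates 1 and 2 were on top, as for that cluster. This order depends on the rescaling, where adult replicate 1 was divided by 0.2835. In deposited FPKM the venom sum was 43690, 336300 and 103000 in adults, against 60580, 141700 and 55180 in nymphs. There adult replicate 1 was the lowest library. The part of venom gland content in the level of Cluster-9520.4646 was not tested. The second cluster named dynactin subunit 4 (Cluster-5140.0, 451 bases) carried only the dynactin family name. It had deposited FPKM of 0, 2.00 and 0 in adults, against 2.37, 0 and 2.45 in nymphs. The 6 other dynactin clusters had log2 fold changes of -1.44 to 0.22. Dynactin subunit 6 (Cluster-7731.0) was the steadiest of them, at 2.28 to 3.01 in adults, against 1.93 to 3.55 in nymphs.

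Axonemal and ciliary members were rare and short. The 16 clusters had a median length of 438.5 bases, and together they held 10, 100 and 387 recovered fragments in adults and 130, 271 and 148 in nymphs, which is 1046 of the 373462 fragments of all members. Only 42 of their 96 values were above 0, and no cluster was above 0 in all 6 libraries. Dynein axonemal light chain 1 (Cluster-3530.0) was listed at 0 everywhere. Of 7 tested, none passed the threshold in limma, also at an unadjusted p under 0.05, and 5 were below 0 with a median of -0.65. Without nymph replicate 2 the median was 0.06.

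The axonemal dynein chains and their assembly factor held 0, 35 and 111 fragments in adults and 92, 60 and 8 in nymphs. Dynein axonemal heavy chain 3 (Cluster-9126.0), a motor subunit of the axoneme, had 0, 4 and 66 fragments in adults and 11, 0 and 0 in nymphs. Most of its signal came from adult replicate 3 (log2 fold change 1.28 ± 1.32, SE, limma, n = 3 per stage, adjusted p = 0.80). The ciliary dynein beta chain (Cluster-11674.0) had 0, 0 and 45 fragments in adults and 10, 32 and 0 in nymphs, again with no order by stage. The second cluster of this chain (Cluster-6026.0) had 28 of its fragments in nymph replicate 2, 4 in adult replicate 2 and 3 in nymph replicate 1. Heavy chain 2 (Cluster-318.0) had 13 fragments in adult replicate 2 and 0 elsewhere.

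Intraflagellar transport proteins carry building material along cilia. Their 5 clusters held 10, 24 and 269 fragments in adults and 19, 59 and 75 in nymphs. The IFT27 cluster (Cluster-13.0, 393 bases) was above 0 only in adult replicate 3, with a deposited FPKM of 52.51. IFT46 (Cluster-5130.0) had 0, 5 and 74 fragments in adults and 8, 34 and 36 in nymphs, and IFT43 (Cluster-10421.0) had 0, 6 and 54 in adults, against 11, 25 and 18 in nymphs. In both, adult replicate 3 was the highest library and adult replicate 1 the lowest, so the adults enclosed the nymphs. IFT56 (Cluster-2827.0) had 10, 2 and 27 fragments in adults and 0, 0 and 5 in nymphs. It had the highest log2 fold change of all tested members, 1.81 ± 0.95 (SE, limma, n = 3 per stage, unadjusted p = 0.085, adjusted p = 0.65), with adult replicate 2 below nymph replicate 3.

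Both cilia- and flagella-associated proteins were more frequent in 2 nymph libraries. CFAP298 (Cluster-9520.1602), the longest axonemal or ciliary cluster, had 0, 27 and 7 fragments in adults and 19, 113 and 45 in nymphs. After rescaling it stood at 0, 1.05 and 0.231 in adults, against 1.15, 4.20 and 2.42 in nymphs, without overlap (log2 fold change -1.31 ± 0.70, SE, limma, n = 3 per stage, unadjusted p = 0.092, adjusted p = 0.67). Motors set beside intraflagellar transport were 6 clusters of kinesin-II, KIF3C, kinesin-associated protein 3 and cytoplasmic dynein 2, grouped after their values were seen. They held 13, 98 and 207 fragments in adults and 116, 38 and 117 in nymphs. In summed rescaled FPKM these motors were highest in nymph replicate 1, at 42.4 against 23.1 in adult replicate 3, whereas the transport proteins were highest in adult replicate 3, at 48.8. Both sums overlapped between the stages.

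**Figure D5:**
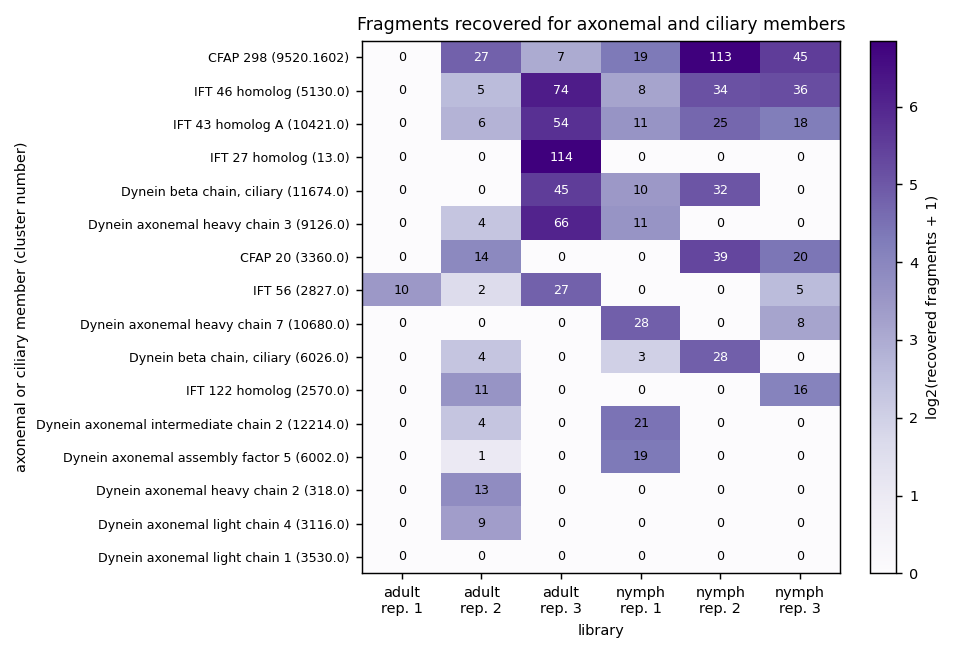
Recovered fragments (numbers, with colour on a log2(fragments + 1) scale) of the 16 axonemal and ciliary clusters (rows) in the 6 libraries (columns). Adult replicate 1 holds 10 fragments in a single cluster, adult replicate 3 holds 7 clusters above 0, most with larger values, and adult replicate 2 has 12 clusters above 0 with at most 27 fragments.

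Testis and sperm markers were measured beside them. The summed rescaled FPKM of the 34 clusters matched was 42.7, 86.9 and 97.1 in adults, against 95.7, 138 and 118 in nymphs, although 8 of them are polyamine enzymes that matched through the letters sperm. Vasa (Cluster-9520.6071), a helicase of germ cells, had deposited FPKM of 0.14, 3.99 and 2.18 in adults, against 2.64, 5.99 and 3.60 in nymphs, and boule (Cluster-9520.2374), known from spermatogenesis, had 0.17, 6.92 and 2.79 in adults, against 3.43, 3.17 and 3.63 in nymphs. Neither was at 0 in any library, and adult replicate 1 was the lowest for both. The part of germ cells in the axonemal values was not tested.

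The Arp2/3 complex nucleates branched actin networks, and all 7 of its clusters were tested. Of these 5 were below 0, with a median of -0.71. Arp3 (Cluster-9520.5258), one of the pair of actin-like subunits, stood at 1.55, 4.10 and 5.07 in adults, against 6.62, 7.93 and 7.15 in nymphs. Here too the stages were apart, nymphs above (log2 fold change -0.94 ± 0.58, SE, limma, n = 3 per stage, adjusted p = 0.73). Subunit 5-B (Cluster-9520.1417) stood at 6.60, 9.55 and 0 in adults, against 14.2, 14.7 and 12.0 in nymphs, also without overlap (log2 fold change -1.76 ± 0.83, SE, limma, n = 3 per stage, adjusted p = 0.59). The other actin-like subunit, Arp2-B (Cluster-9520.3525), overlapped between the stages at 0 to 5.68 in adults, against 3.12 to 3.94 in nymphs.

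Subunits of 1 complex did not follow each other across libraries. Subunit 3-B (Cluster-9520.609) was at 7.27 in adult replicate 1, where subunits 1A and 4, Arp2-B and the subunit of Cluster-9520.1937 were listed at 0. The whole complex held 32 recovered fragments in adult replicate 1 and 643 to 968 in the others, so its zeros in that library rest on few fragments. The summed level of the complex was 15.4, 31.0 and 25.3 in adults, against 40.2, 37.4 and 40.9 in nymphs, with the nymphs above. This split depends on the rescaling. In deposited FPKM the sum was 4.37, 50.97 and 39.48 in adults, against 41.09, 50.85 and 40.53 in nymphs, and the stages overlapped.

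The other actin-related proteins were low. Of their 7 clusters 3 were tested. Actin-related protein 10 (Cluster-9845.0), which caps the filament inside dynactin, lay at 2.13 to 4.51 in adults, against 1.85 to 3.39 in nymphs. Actin-related proteins 5, 6 and 8 work in chromatin remodelling in the nucleus. All 3 clusters of actin-related protein 5 were above 0 in adult replicate 2, with 35 fragments in all, and the other libraries held 2 fragments, both in nymph replicate 2.

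Proteins of actin turnover and capping had log2 fold changes on both sides of 0. All 10 clusters were tested, 6 were below 0 and the median was -0.04. Cofilin (Cluster-9520.4031), which severs filaments, stood at 64.1, 59.6 and 66.8 in adults, against 69.6, 77.9 and 109 in nymphs. The stages did not overlap, yet its highest library was only 1.82 times its lowest (log2 fold change -0.40 ± 0.47, SE, limma, n = 3 per stage, adjusted p = 0.82). Profilin (Cluster-9520.4564), which feeds actin monomers to growing ends, stood at 27.2, 47.0 and 47.7 in adults, against 49.5, 41.5 and 52.3 in nymphs, and only adult replicate 1 was apart. Gelsolin (Cluster-9520.5415), which severs and caps, lay at 6.39 to 14.5 in adults, against 8.54 to 26.9 in nymphs.

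The alpha and beta subunits of capping protein work as a pair. The alpha subunit (Cluster-9520.2821) stood at 20.9, 8.24 and 7.84 in adults, against 10.5, 6.13 and 16.6 in nymphs. The beta subunit (Cluster-9520.5990) stood at 18.9, 8.96 and 8.64 in adults, against 7.48, 14.8 and 13.8 in nymphs. Their ratio in deposited FPKM was 0.907 to 1.11 in adults, against 0.414 to 1.40 in nymphs, near parity except in nymph replicate 2. Formin-binding protein 1-like (Cluster-9520.5191), a membrane-bending protein that recruits actin nucleators, stood at 4.97, 4.89 and 5.39 in adults, against 2.37, 1.85 and 3.27 in nymphs. It was the only cytoskeletal member with all adult libraries above all nymph libraries (log2 fold change 0.82 ± 0.58, SE, limma, n = 3 per stage, adjusted p = 0.74). Formin-binding protein 4 (Cluster-9520.655) showed the widest spread of the class, from 0.301 to 29.6, both in nymphs.

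Spectrin and filamin tie actin to the membrane and to each other. All 4 clusters were above 0 in all libraries and were tested. Filamin-A (Cluster-9520.4619), an actin cross-linker, stood at 28.2, 29.7 and 17.8 in adults, against 31.1, 13.2 and 10.1 in nymphs, with an overlap (log2 fold change 0.58 ± 0.56, SE, limma, n = 3 per stage, adjusted p = 0.79). Alpha-spectrin (Cluster-9520.5425) stood at 6.28, 9.82 and 23.6 in adults, against 13.2, 20.4 and 11.3 in nymphs. Beta-spectrin (Cluster-9520.5166), which pairs with it, stood at 6.07, 7.57 and 26.2 in adults, against 7.07, 21.0 and 14.8 in nymphs. Alpha over beta in deposited FPKM was 0.767 to 1.30 in 5 libraries and 1.87 in nymph replicate 1. Both chains were at their highest in adult replicate 3 and their lowest in adult replicate 1, so the adults enclosed the nymphs.

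The 14 clusters that matched only through letters inside another word are mostly not cytoskeletal. They include the succinate-CoA ligase chains of the mitochondrial citric acid cycle, the extracellular protein ig-h3 and cardiolipin synthase. The succinate-CoA ligase alpha chain (Cluster-9520.5252) stood at 13.9, 12.6 and 4.80 in adults, against 16.4, 17.98 and 15.99 in nymphs, without overlap (log2 fold change -0.75 ± 0.54, SE, limma, n = 3 per stage, adjusted p = 0.74). Of the 14, 12 were tested and 10 were below 0, with a median of -0.74. Without these 14 clusters the median over the members was -0.43.

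Other genes of the same pathways were counted from lists outside the rule, and in none of the 4 lists did a cluster pass an adjusted p under 0.05 in limma. The list of actin and actin assembly held no cluster named actin itself. It also took clusters named scarlet and escargot through the letters scar, none of which was tested. Of 33 tested clusters of actin and actin assembly, 23 were below 0 with a median of -0.36, and 2 had an unadjusted p under 0.05, both lower in adults, where 61.6% of all tested clusters were below 0 and 6.09% were lower at that threshold. One was cortactin (Cluster-9520.4596), which steadies actin branches, with deposited FPKM of 0, 3.89 and 3.99 in adults, against 6.99, 12.87 and 10.09 in nymphs (log2 fold change -2.09, limma, adjusted p = 0.34). Of 24 tested clusters of the centrosome and microtubule dynamics, 18 were below 0 with a median of -0.57, and 3 had an unadjusted p under 0.05, all lower in adults. One of the 3 (Cluster-9520.2662) is named spindle-E, an RNA helicase of small-RNA pathways that matched through the word spindle, and the list holds 3 tested clusters of that name. Stathmin-4 (Cluster-9520.2929), of a family that binds free tubulin, had deposited FPKM of 1.41, 0.72 and 7.09 in adults, against 23.27, 34.87 and 33.46 in nymphs. The stages were far apart (log2 fold change -2.95, limma, unadjusted p = 0.00093, adjusted p = 0.14). Both examples were picked for their values.

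Of 24 tested myosin clusters, 21 were below 0 with a median of -0.76. At an unadjusted p under 0.05 in limma 1 was higher and 4 were lower in adults. The list also took 2 clusters named paramyosin and tropomyosin, which are muscle proteins. Paramyosin is 1 of the 4. Myosin light chain 1 and myosin regulatory light chain 2, whose names do not settle whether they are of muscle, were at -1.32 and -1.18. Muscle markers were measured beside the myosin list. Their summed rescaled FPKM over 29 clusters was 270, 68.3 and 152 in adults, against 232, 250 and 474 in nymphs, overlapping between the stages. This overlap depends on the rescaling. In deposited FPKM the sum was 76.6, 112.2 and 236.9 in adults, against 237.6, 339.7 and 468.9 in nymphs. Each nymph library was then above each adult one, though adult replicate 3 and nymph replicate 1 nearly met. Of 21 tested muscle clusters, 7 were lower and 1 was higher at an unadjusted p under 0.05 in limma, beside 6.09% and 2.95% of all clusters, with a median of -1.06 and none past an adjusted p under 0.05. The 7 include troponin T (Cluster-9520.5768), with deposited FPKM of 4.06, 10.28 and 18.93 in adults, against 26.82, 38.50 and 90.35 in nymphs. Muscle myosin heavy chain and paramyosin are also among them. The 1 higher was a titin cluster (Cluster-3636.0, log2 fold change 2.8). Its deposited FPKM was 3.90, 1.09 and 19.99 in adults, against 0 in each nymph library. Other titin clusters lay on both sides of 0, such as Cluster-2350.0 at 2.23 and Cluster-9520.1279 at -0.82. The part of muscle in the levels of the myosin list was not tested. The list of further axoneme and cilium genes had 4 tested clusters of 5, with 1 below 0 and a median of 0.24.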

How the data were processed

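Venom gland RNA of 3 adult and 3 nymph libraries was measured by RNA-seq. The authors deposited FPKM, 1 column per library, with cluster lengths and best database matches. The submitters' processing notes name DESeq2 1.20.0, featureCounts 1.5.0-p3, HISAT2 2.0.5, fastp and CASAVA 1.8. The tool behind the FPKM is not stated there, and clusters carry no genome position here.

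Fragments were recovered from the steps of low FPKM, fitted on clusters of 500 to 1100 bases. The FPKM divides by a length shortened by 217.5 to 293.2 bases, which differs between libraries and weighs most on short clusters. In 99.0% to 99.7% of values of clusters of 1100 to 1500 bases, the recovered number was whole within 0.15. Among low values of the members themselves this held for 84.7% in adult replicate 1 and for 92.5% to 96.3% in the other libraries. For 9 members a value was rounded by over 0.3 to reach a whole number. Fragment numbers therefore carry error from the recovery as well as counting error.

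Adults were set against nymphs with limma 3.58.1 in R 4.3.3, using eBayes with trend and robust. Stage was the only term, on log2 of rescaled FPKM plus a pseudocount of 1. The procedure was tested on simulated data before use. Named clusters are the 3 most abundant of each class, the 5 most abundant axonemal ones and the largest changes without overlap. Other clusters were named after their values were seen. The members and lists were chosen with earlier results of these data known. Alternatives were other pseudocounts, filters, scalings, a replicate block and leaving out each library.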

Additional observations from a re-analysis of the deposited data

How the results depend on the processing

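No setting gave an axonemal or ciliary cluster past the threshold. The count of members past it was 1 without a filter on low values, and 0 to 1 over leaving out each library in turn, with 1 (tau) without adult replicate 3. It was 0 under all other alternatives. The count over all clusters, 28, was 12 with a pseudocount of 0.1, 104 without a filter, 65 with a mean FPKM of at least 1, 72 with FPKM as deposited, 47 after quantile normalization and 65 with library quality weights, an alternative chosen after seeing the data. Over leaving out each library it ran from 1 without adult replicate 2 to 54 without adult replicate 3. It was 4 without adult replicate 1, and 6, 9 and 9 without nymph replicates 1, 2 and 3. The scaling moved the median log2 fold change of all clusters, which was -0.29 as reported, -0.33 as deposited, -0.40 at an equal total and -0.07 after quantile normalization. The median of the members moved with it to -0.55, -0.67 and -0.28. The axonemal median was -1.78 with a pseudocount of 0.1. The causes were not tested.

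Replicate numbers are shared between stages, and whether they pair the libraries is not known. Deviations from the stage means correlated at 0.165, -0.0427 and 0.213 for numbers 1, 2 and 3. Between unlike numbers the correlations ran from -0.275 to 0.151. With 3 libraries per stage these values cannot decide whether the libraries are paired. With the replicate block 29 clusters and 0 members passed the threshold. At an unadjusted p under 0.05 in limma the block gave 7.84% of members and 10.2% of all clusters. Without it these shares were 4.9% and 9.05%.

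Of 36 tested named clusters 9 changed sign in some alternative, in each case from a log2 fold change near 0. With FPKM as deposited and at an equal total, Cluster-9520.3465 (ig-h3) was at -0.11 and -0.28, Cluster-9845.0 (actin-related protein 10) at -0.10 and -0.24, Cluster-12623.1 (actin-related protein 6) at -0.15 and -0.03, and Cluster-9520.3529 (polymerization-promoting protein) at -0.11 and -0.32. The last was also at -0.01 after quantile normalization and -0.18 with quality weights, and Cluster-9520.5571 (kinesin light chain) was at -0.14 at an equal total. Over leaving out each library, log2 fold changes ran from -0.45 to 0.01 for Cluster-9520.4564 (profilin), -0.11 to 0.33 for Cluster-9520.5571, -0.52 to 0.92 for Cluster-9520.3465, -0.68 to 0.01 for Cluster-9520.3656 (Jupiter) and -0.14 to 0.24 for Cluster-9845.0. They ran from -0.52 to 0.71 for Cluster-12623.1, -0.85 to 0.08 for Cluster-9520.5425 (alpha-spectrin), -0.90 to 0.13 for Cluster-9520.5166 (beta-spectrin) and -0.13 to 0.40 for Cluster-9520.3529. Axonemal and ciliary clusters rest on few fragments, and held 1046 of the 373462 recovered fragments of all members.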

Other observations

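Several clusters carry the same protein names as the members but have another first match, so the rule leaves them out. Filamin-C (Cluster-9520.4618, first match Apolygus lucorum) had deposited FPKM of 1.77, 17.75 and 20.68 in adults, against 9.73, 9.25 and 5.96 in nymphs. A tubulin alpha-1A cluster (Cluster-9520.3560, first match Nesidiocoris tenuis) had 0.61, 0.23 and 2.95 in adults, against 5.73, 17.9 and 15.4 in nymphs. All its nymph libraries lay above all adult libraries (log2 fold change -2.41 ± 0.68, SE, limma, n = 3 per stage, unadjusted p = 0.0051, adjusted p = 0.27). An axonemal dynein intermediate chain 2 (Cluster-11605.0, first match Cimex lectularius) had 1.42, 1.58 and 0 in adults, against 2.57, 2.65 and 0 in nymphs. It was listed at 0 in replicate 3 of both stages.

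Of the other marker lists, the epidermis and trachea list stood apart in summed rescaled FPKM, at 5.71, 9.19 and 4.11 in adults, against 235, 34.9 and 49.4 in nymphs. All 8 tested clusters of it were below 0, beside 61.6% of all tested clusters. None passed an adjusted p under 0.05 in limma. At an unadjusted p under 0.05 in limma 4 were lower in adults, beside 6.09% of all tested clusters. Haemocyte markers spanned 333 to 1324 in adults and 261 to 1793 in nymphs. Most of this sum came from clusters named phenoloxidase-activating enzyme, such as Cluster-9520.4471, with deposited FPKM of 1271.85 in adult replicate 2. Midgut markers spanned 130 to 1969 in adults and 177 to 1349 in nymphs, and fat body markers 1.13 to 57.2 in adults and 24.3 to 30.2 in nymphs. The midgut list also took neurotrypsin, antitrypsin and inter-alpha-trypsin inhibitors, which matched through the letters trypsin. One cluster that the midgut list took by its name alone, an aminopeptidase N (Cluster-9520.6270), passed the threshold in limma (log2 fold change 6.5, n = 3 per stage, adjusted p = 0.032). It had deposited FPKM of 126.07, 2796.55 and 105.96 in adults, against 5.93, 4.50 and 1.38 in nymphs. It makes up most of the midgut sum of adult replicate 2. The sums of these 3 lists overlapped between the stages, and their part in the values of the cytoskeletal clusters was not tested.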
